A study of Arabidopsis thaliana with 22 samples.

Results

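Trimethylation of histone H3 at lysine 27 (H3K27me3) was compared between wild-type Arabidopsis inflorescences and induced cauliflower apices, in 2 ChIP-seq libraries of each. These 4 libraries were taken by their labelled tissue and antibody, from 8 H3K27me3 libraries, 16 ChIP libraries and 22 samples in the series. Inflorescences were whole main inflorescences of untreated wild-type Ler plants, with flowers past stage 12 taken off. Apices (apex t2) were dissected cauliflower structures collected 2 days after 10 µM dexamethasone, from a line with the 35S::AP1:GR transgene and the ap1 cal mutations. All plants were in the Ler background. The ap1 cal double mutant piles up inflorescence meristems. The transgene expresses, from a constitutive promoter, an AP1 protein fused to the glucocorticoid receptor, which dexamethasone lets into the nucleus to start flower formation. Genotype, treatment, tissue and the chromatin per reaction (10 µg for inflorescences, 15 µg for apices) all differ between the groups and cannot be told apart. The comparison asks how the mark differs between an inflorescence holding flowers up to a late bud stage and apices whose flowers had just been initiated. Untreated apices of the same line (apex t0) and rosette leaves of flowering wild-type plants, 2 libraries each, entered the statistical fit and serve as further stages.

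H3K27me3 is laid down by Polycomb repressive complex 2, whose catalytic subunits in the shoot are CLF and SWN. It covers whole genes in broad domains and marks genes held silent, including many developmental regulators in tissues where they are not used. H3K4me3, found over the start of active genes, is the second mark measured in the same stages.

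Islands are stretches of the genome enriched over a control. Inflorescence replicates 1 and 2 had 3779918 and 19379225 reads in islands, against 10852646 and 13745836 in apex t2 replicates 1 and 2. Inflorescence replicate 1 stood apart. Its 7931 islands covered 17.5 Mb with a median width of 1600 bp, whereas the 8048 islands of replicate 2 covered 25.6 Mb with a median of 2200 bp. The apex t2 libraries held 7715 and 7640 islands over 21.3 and 24.3 Mb. The share of covered length that 2 libraries had in common (Jaccard index) was 0.591 between the inflorescence replicates and 0.834 between the apex t2 replicates. Between tissues it ran from 0.592 to 0.802. The index also follows the unequal covered lengths, since 91.6% of the length covered in inflorescence replicate 1 was covered in replicate 2, against 86.7% and 88.9% in the apex t2 libraries. Of the length covered in both apex t2 libraries, 5.00 Mb was also covered in inflorescence replicate 2 but not in replicate 1. Only 0.696 Mb was covered in both inflorescence libraries and neither apex library, and 0.764 Mb the other way round. The replicate number also marks a batch, since the labels give replicate 2 a longer sonication, another antibody lot, another library kit and sequencer, and 3 pooled technical reactions.

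Per gene, the value is the number of island reads within the gene body per 1000000 island reads of the library (RPM). An overlap of 200 bp or more between islands and gene body counted as marked. A value of 0 RPM means that the library has no island there, not that no reads fell there. Of 27444 protein-coding genes, 7129 were marked in both inflorescence replicates and 7874 in both apex t2 replicates. Genes marked in both replicates of either tissue were tested, 8229 in all. H3K27me3 was higher in the inflorescence at 133 genes (1.62% of those tested) and lower at 138 (1.68%), 271 in all (3.29%), by limma with Benjamini-Hochberg adjusted p under 0.05. Most of these calls were islands present in one tissue and missing from the other. There the tissue without islands has 0 RPM in both libraries, and so no measured spread. Among 6844 genes with islands in all 4 libraries, 16 were higher and 5 lower.

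The plot of mean values shows that most marked genes had a similar share of reads in both tissues. Over the 6844 genes the median log2 fold change was 0.05, and 257 genes differed by more than 1 log2 unit. The replicates of the inflorescence differed with an SD of 0.681 log2 units, and those of the apex with an SD of 0.372. The tissue difference had an SD of 0.664 within replicate 1 and 0.395 within replicate 2. A single library decided the number of calls. Leaving out apex t0 replicate 2 left 5 called genes. Without apex t2 replicate 1 or 2, limma called 0, with 465 and 548 genes at an unadjusted p under 0.05. Without inflorescence replicate 1, 208 were called, and without inflorescence replicate 2, 1006. Reads per covered kb exist only for the 6774 genes marked in all 4 libraries, which hold 20 of the 271 calls. On that measure limma called 0 of them, with 209 at an unadjusted p under 0.05. The gained and lost genes could not be tested that way.

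**Figure D1:**
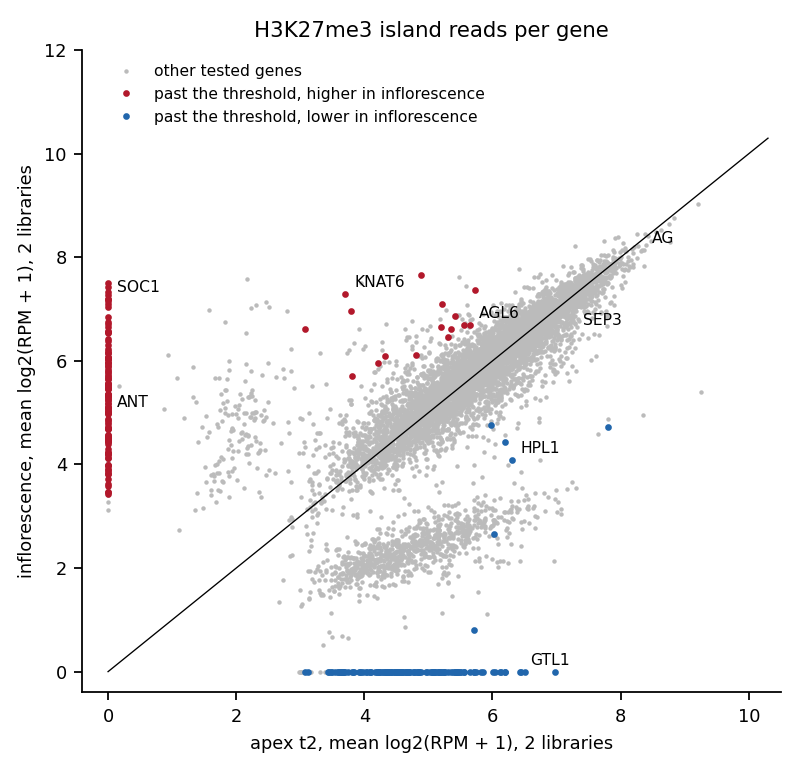
Mean log2(RPM + 1) of H3K27me3 per tested gene, inflorescence (vertical) against apex t2 (horizontal), 2 libraries each, with 133 genes called higher and 138 lower in colour. Most coloured points lie on an axis, where 1 tissue has no island, and the lower grey cloud holds genes with an island in a single inflorescence library.

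The clearest group was that of meristem regulators, where the mark was higher in the inflorescence. Of 21 listed meristem and inflorescence genes, 19 were tested, 4 were higher (KNAT6, BLH9, ANT and AIL6) and none lower, against 1.62% higher among all tested genes. The log2 fold change was above 0 in 17 of the 19 and had a median of 0.74, against 50.9% and 0.01 over all tested genes. All 19 were marked in both inflorescence replicates and 14 in both apex t2 replicates. The rest, BLH9 and ANT among them, entered the test through the inflorescence alone, which favours a value above 0. Of the 14 with islands in all 4 libraries, 12 were above 0, with a median of 0.46. Over all 6844 such genes, the share was 56.4% and the median 0.05. With TMM or median-ratio scaling, 17 of 19 were again above 0 and 4 were called. Calls fell to 2 without inflorescence replicate 1 (BLH9 and ANT, with 15 of 20 above 0), 2 without apex t0 replicate 1 and 1 in a fit of the 4 libraries alone. Limma called 0 without apex t0 replicate 2 or either apex t2 replicate, with 16 or 17 genes above 0. Per covered kb, 11 of 14 were above 0 and 0 were called. In these bulk tissues, fewer cells carrying the mark and less mark per cell cannot be told apart.

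KNAT6 (AT1G23380), a class I KNOX homeobox gene of meristems and organ boundaries, had 184 and 131 RPM in inflorescence replicates 1 and 2, against 17.3 and 8.27 RPM in apex t2. Both inflorescence values lay far above both apex values. The log2 fold change was 3.59 ± 0.37 (SE, n = 2 each, limma adjusted p = 0.0114). On chromosome 1 of TAIR10, inflorescence replicate 1 had an island at chr1:8297401-8306600, which starts inside the gene and runs past its other end, while apex t2 replicate 1 had one at chr1:8301601-8304000, over that end only. Islands covered on average 91.5% of the gene in the inflorescence and 13.9% in apex t2. Per covered kb, the values were 35.1 and 28.1 RPM against 16.4 and 18.3 RPM. Without inflorescence replicate 1, the adjusted p was 0.0682.

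BLH9 (AT5G02030, also PENNYWISE, listed as RPL in the gene table), a BELL homeobox partner of KNOX proteins, had 186 and 92.0 RPM in the inflorescence and no island in either apex t2 library (adjusted p = 0.00973). Its inflorescence islands, at chr5:395601-401200 in replicate 1 and chr5:395601-400800 in replicate 2, covered 99.0% of the gene. The adjusted p lay under 0.05 with either inflorescence replicate left out and reached 0.137 without apex t2 replicate 1. ANT (AT4G37750), an AP2-type factor of organ growth, had 18.5 and 49.7 RPM in the inflorescence and no island in apex t2 (adjusted p = 0.0176). In inflorescence replicate 1, the ANT value rests on 70 ChIP reads in an island of 0.6 kb, where the control had 156. The ANT call was lost with no filter on low values and in a fit of the 4 libraries alone. AIL6 (AT5G10510), a relative of ANT, had 98.1 and 106 RPM, against 52.2 and 40.7 RPM in apex t2, a log2 fold change of 1.13 ± 0.15 (adjusted p = 0.0199). The AIL6 island had the same bounds in both inflorescence libraries, chr5:3308801-3317600, and shorter separate islands stood in the apices. Without inflorescence replicate 1, the AIL6 call was lost.

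**Figure D2:**
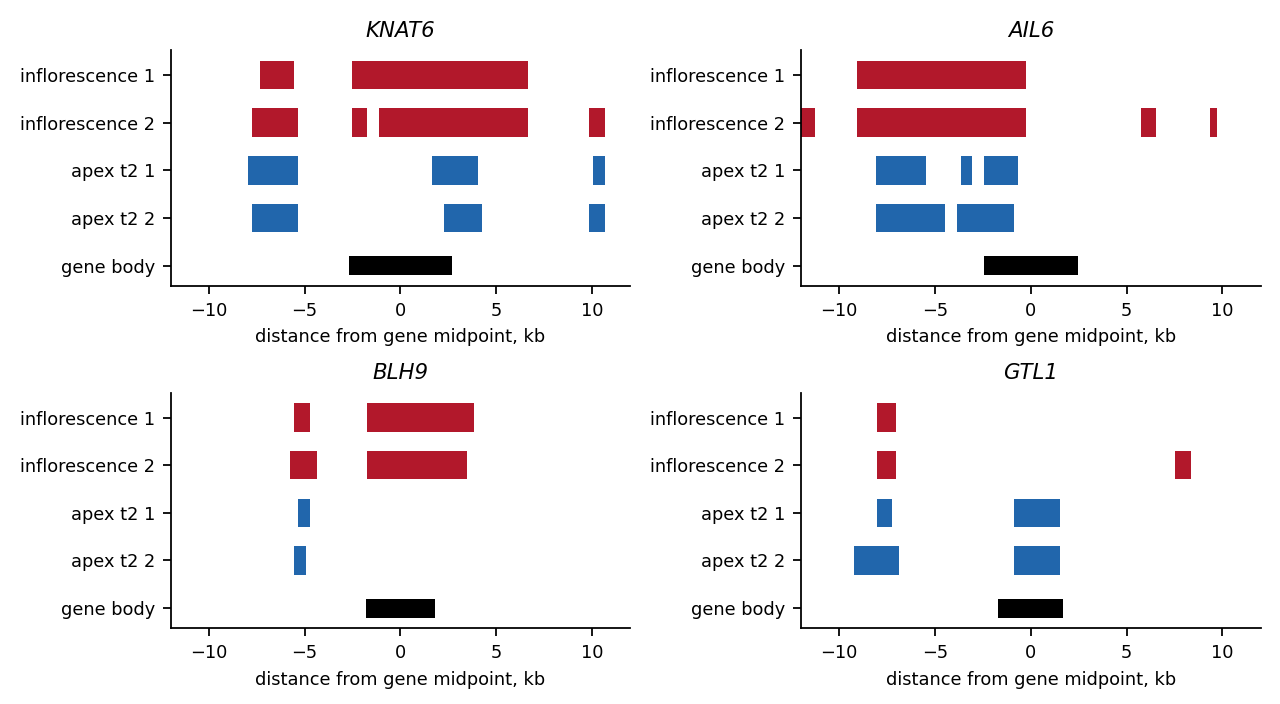
H3K27me3 islands within 12 kb of the midpoint of 4 genes, by library (inflorescence replicates above apex t2 replicates), with the gene body in black. KNAT6 and AIL6 lie in broader islands in the inflorescence, BLH9 has an island only in the inflorescence and GTL1 only in apex t2.

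Several other meristem genes had higher values in the inflorescence without passing the test. STM, the KNOX gene that keeps meristem cells undifferentiated, had 246 and 212 RPM in the inflorescence and 164 and 113 RPM in apex t2, a log2 fold change of 0.74 ± 0.28 (limma adjusted p = 0.518, and 0.0489 with the replicate number as a block). KNAT2 had 266 and 137 RPM against 19.3 and 0 RPM, and BLH8 had 154 and 117 RPM against 0 and 23.4 RPM. AIL5, AIL7, TFL1 and KNAT1 lay between 0.51 and 0.85 log2 units. WUS, which maintains the stem cells, had 207 and 112 RPM against 131 and 102 RPM, and the groups overlapped. CLV3, the stem cell peptide, had 33.5 and 34.7 RPM in the inflorescence and 38.1 and 35.6 RPM in apex t2. CLV1, the receptor of that peptide, had no H3K27me3 island in any of the 4 libraries.

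H3K4me3 at the meristem genes ran the other way. Of 18 listed genes tested for H3K4me3, all 18 had a log2 fold change below 0, with a median of -1.28, against 58.4% and -0.04 over all 17004 genes tested. None passed the test, as for all genes tested (0%). The summed H3K4me3 of the list was 608 and 918 RPM in the inflorescence and 1343 and 1508 RPM in apex t2. All 18 tested genes were H3K4me3-marked in both apex t2 replicates, and 11 of them in both inflorescence replicates. The rest, CUC2 and CUC3 among them, entered the test through apex t2 alone, which favours a value below 0. The 11 marked in both tissues were below 0 as well. CUC2 and CUC3, which set organ boundaries, had no H3K4me3 island in the inflorescence, against 41.8 and 45.8 RPM for CUC2 and 42.7 and 61.9 RPM for CUC3 in apex t2. Their H3K27me3 log2 fold changes were both 0.26 and did not pass the test. Lower H3K4me3 was not particular to the meristem list. All 5 floral organ growth and boundary genes tested for H3K4me3 were below 0, with a median of -2.91, as were 15 of 19 flowering time genes. The same filter favours such values. All 5 and all 19 were H3K4me3-marked in both apex t2 replicates, but 2 and 15 in both inflorescence replicates. The median of -2.91 is the value of UFO, with 35.0 and 0 RPM in the inflorescence against 39.0 and 49.6 RPM in apex t2. All 12 photosynthesis genes were above 0. The share of meristem cells in each tissue was not measured, and its part in these differences was not tested.

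Among regulators of flowering, 1 gene passed the test. SOC1 (AT2G45660, listed as AGL20 in the gene table), a MADS-box gene that integrates flowering signals, had 175 and 121 RPM in the inflorescence and no island in apex t2 (limma adjusted p = 0.0117). Its islands lay at chr2:18807601-18811000 and chr2:18807401-18811000 in inflorescence replicates 1 and 2. Its H3K4me3 was 24.8 and 67.4 RPM in the inflorescence and 99.0 and 99.1 RPM in apex t2. The neighbouring AGL6 (AT2G45650), a MADS-box gene of the floral identity list, had 101 and 106 RPM against 50.5 and 48.4 RPM in apex t2. Its log2 fold change was 1.05 ± 0.16 (adjusted p = 0.0283), and the groups did not overlap. Neither call held without inflorescence replicate 1.

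Of 29 flowering time genes, 21 were tested, of which SOC1 was higher and none lower, against 1.62% and 1.68% of all tested genes. The log2 fold change was above 0 in 12 (57.1%) and had a median of 0.31, against 50.9% and 0.01 over all tested genes. The relatives of SOC1 did not pass the test and went both ways. AGL42 had 137 and 69.6 RPM against 14.2 and 13.9 RPM, AGL71 had 199 and 194 RPM against 123 and 87.9 RPM, and AGL72 had 174 and 170.0 RPM against 108 and 72.6 RPM. AGL14 had 141 and 180.0 RPM in the inflorescence and 224 and 183 RPM in apex t2, and AGL19 had 174 and 220.0 RPM against 236 and 225 RPM. SVP, a repressor of flowering, had 242 and 208 RPM against 154 and 143 RPM (0.60 ± 0.15, adjusted p = 0.179). FLC, the vernalization-responsive repressor, had 527 and 351 RPM against 490.0 and 423 RPM, with overlapping groups. SPL4, a factor that promotes flowering, had no island in the inflorescence and 17.1 and 18.8 RPM in apex t2 (adjusted p = 0.452).

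Of the floral identity genes, AGL6 was the one past the threshold. Of 16 listed genes, 14 were tested, 1 was higher and none lower, against 1.62% higher and 1.68% lower among all tested genes. The median log2 fold change was -0.19, against 0.01 over all tested genes. LFY (AT5G61850), which specifies floral meristems, had 218 and 138 RPM in the inflorescence and 51.4 and 42.9 RPM in apex t2. Both inflorescence values were above both apex values, and the log2 fold change was 1.86 ± 0.33. The limma adjusted p was 0.0572, and 0.0244 with the replicate number as a block. FUL, a close relative of AP1, had 151 and 111 RPM against 20.9 and 0 RPM.

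The genes of the floral organs given next carried the mark in both tissues. Of the same list, AP2 had no island in any of the 4 libraries, and SEP4 had an island only in inflorescence replicate 2. AG, which specifies stamens and carpels, had 281 and 284 RPM in the inflorescence and 327 and 319 RPM in apex t2, with islands over the whole gene in both. AP3 and PI, which specify petals and stamens, had log2 fold changes of -0.02 ± 0.20 and -0.04 ± 0.28. SEP3, a cofactor of all floral organ identity proteins, had 88.7 and 97.7 RPM against 164 and 144 RPM, a log2 fold change of -0.72 ± 0.25 (adjusted p = 0.448). Its H3K4me3 was 70.8 and 74.9 RPM in the inflorescence, against 0 and 27.1 RPM in apex t2. SEP1 had 50.5 and 113 RPM of H3K27me3 against 156 and 137 RPM, and SEP2 differed by -0.22 ± 0.26. CAL had 201 and 210.0 RPM against 219 and 186 RPM. AP1 had 81.2 and 183 RPM against 237 and 178 RPM, with overlapping groups. The apices carry a mutant ap1 allele and an AP1 transgene, so the apex value cannot be assigned to the natural locus alone.

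**Figure D3:**
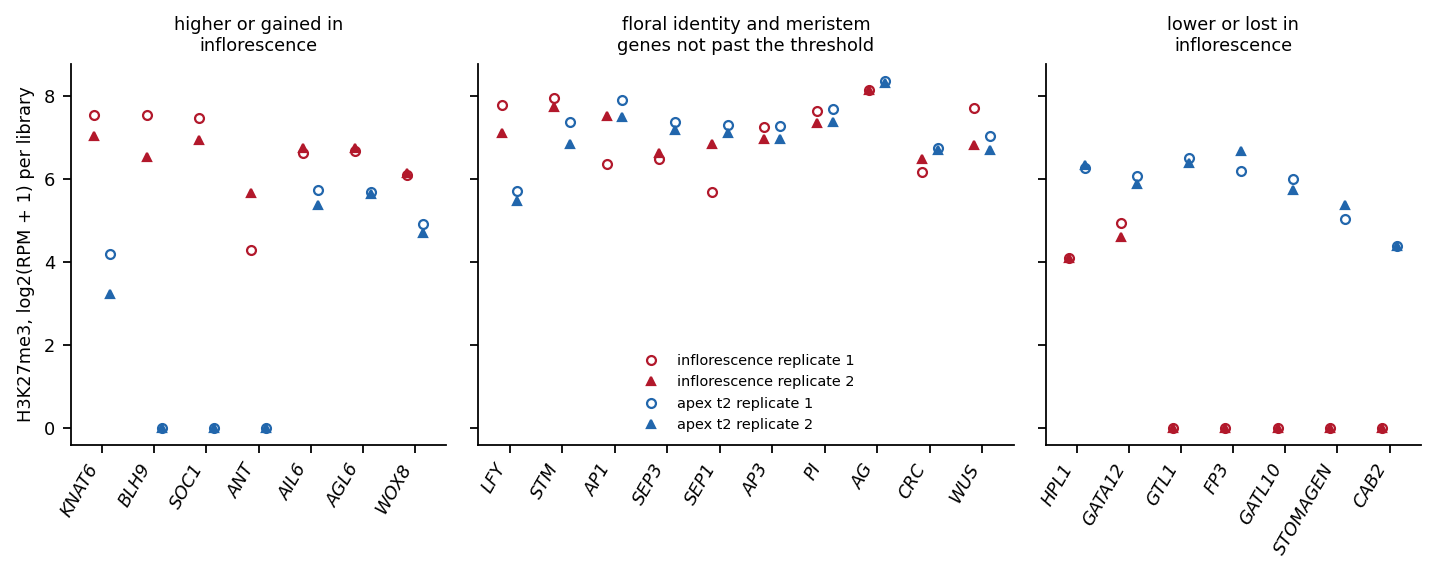
H3K27me3 of named genes as log2(RPM + 1) in each library, inflorescence (red, left) beside apex t2 (blue, right), circles for replicate 1 and triangles for replicate 2. BLH9, SOC1 and ANT sit at 0 in apex t2, GTL1, FP3, GATL10, STOMAGEN and CAB2 at 0 in the inflorescence, and AG, AP3 and PI at like levels in both.

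Genes of late floral organs had median H3K27me3 differences near 0. Of 17 carpel, ovule and fruit genes, 14 were tested and 0 passed, with a median log2 fold change of 0.08. Of 18 stamen, tapetum and pollen wall genes, 9 were tested and 0 passed, with a median of 0.14. CRC, a carpel and nectary factor, had 70.5 and 88.6 RPM in the inflorescence and 107 and 103 RPM in apex t2 (-0.41 ± 0.17). Of 11 carpel, ovule and fruit genes tested for H3K4me3, 4 had a log2 fold change above 0 and 7 below, with a median of -0.46. Over all genes tested for H3K4me3, 58.4% lay below 0. NGA2 and NGA3, which pattern the style, were among the 4 and were named after their values were seen. NGA2 had 53.7 and 62.0 RPM of H3K4me3 in the inflorescence and no island in apex t2, and NGA3 had 58.5 and 68.8 RPM and no island. Their H3K27me3 was 128 and 110.0 RPM against 134 and 117 RPM for NGA2, and 125 and 114 RPM against 133 and 126 RPM for NGA3. As a check of the tissue, H3K4me3 marked 9 carpel genes in both replicates of each tissue, and 3 stamen and tapetum genes in the inflorescence against 5 in apex t2. The tapetum genes DYT1, TKPR1, CYP704B1 and MS2 had no island of either mark in any library of the 2 tissues.

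Of the remaining lists, 11 floral organ growth and boundary genes had a median log2 fold change of 0.35, 10 organ polarity and TCP genes -0.13, 8 stomata and trichome genes -0.01, 7 vascular genes -0.10, 7 root genes 0.07 and 2 Polycomb genes 0.12, each with 0 genes passing. Hormone synthesis and transport genes had a median of -0.11 over 20 tested. Seed and embryo genes had a median of 0.10 over 13 tested, with WOX8, a homeobox gene of the early embryo, higher at 66.9 and 69.9 RPM against 29.1 and 25 RPM. Its adjusted p was 0.0472, and 0.0634 with the block.

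**Figure D4:**
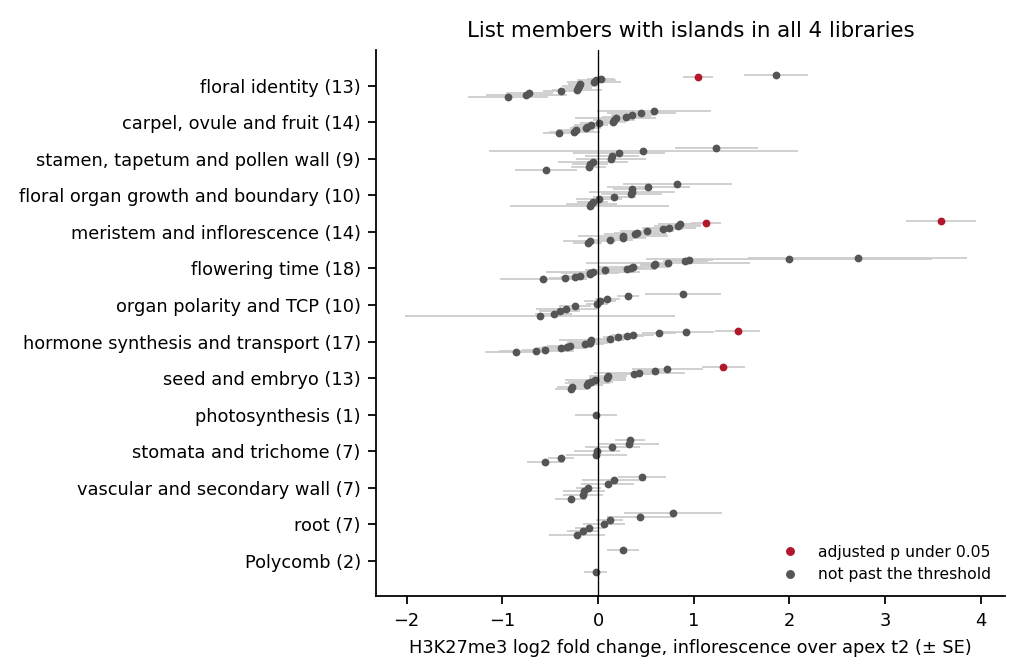
H3K27me3 log2 fold change (inflorescence over apex t2, bars are SE) of each list member with islands in all 4 libraries, with their number in brackets. Meristem genes lie mostly right of 0, 12 of 14, and floral identity genes mostly left of it, 10 of 13, while AGL6 and LFY lie far right. Of all 6844 genes with islands in all 4 libraries, 56.4% had a log2 fold change above 0.

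Outside the lists, the higher genes with islands in all 4 libraries included BEN1, an enzyme that lowers brassinosteroid levels, and the nucleolin gene NUC-L2. BEN1 had 96.0 and 98.9 RPM in the inflorescence and 38.1 and 41.5 RPM in apex t2, a log2 fold change of 1.27 ± 0.15 (limma adjusted p = 0.0140). In replicate 1, its island held 363 ChIP and 297 control reads in the inflorescence, against 413 and 259 in apex t2. The higher value there thus follows from the scaling to island reads of the library. In inflorescence replicate 2, the value is a share of an island of 26.2 kb. The BEN1 call was lost in a fit of the 4 libraries alone. NUC-L2 had 185 and 145 RPM against 43.0 and 62.1 RPM (adjusted p = 0.0417, and 0.0639 with the block). Of the 16 higher genes, 9 had no symbol, all 16 had more covered length in the inflorescence, and 14 also had more reads per covered kb. All 16 were also higher in both leaf libraries than in either apex t2 library. That share was not counted over all genes with islands in all 4 libraries, and leaf and inflorescence shared a control (below).

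Of the 5 lower genes with islands in all 4 libraries, 2 had a symbol. In both leaf libraries, 3 of the 5 were lower than in either apex t2 library and 2 were higher. HPL1 (AT4G15440), a hydroperoxide lyase that makes leaf volatiles, had 16.1 and 16.0 RPM in the inflorescence and 75.8 and 80.4 RPM in apex t2, a log2 fold change of -2.21 ± 0.24 (limma adjusted p = 0.0119). Its island in inflorescence replicate 2, chr4:8834801-8836200, lay inside that of apex t2 replicate 1, chr4:8832401-8836400. Its H3K4me3 was 63.3 and 61.9 RPM in the inflorescence and 0 and 19.2 RPM in apex t2. The HPL1 call was lost without inflorescence replicate 1. The zinc finger gene GATA12 (AT5G25830) had 29.4 and 23.3 RPM against 66.7 and 57.5 RPM, a log2 fold change of -1.21 ± 0.17 (adjusted p = 0.0207).

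An island was gained at 186 genes (2.26% of those tested), which were marked in both inflorescence libraries and had no island in either apex t2 library. At 183 genes (2.22%) it was lost, the reverse pattern. Limma called 117 of the gained and 132 of the lost genes. These sets were picked on the same values, so the calls are no separate support. The tissue without islands has 0 RPM in both libraries and adds no replicate spread. Of the gained genes, 156 also had no island in either apex t0 library. The p-values of these genes therefore do not measure how far replicates vary. Within replicate 1 alone, 634 genes had an island in the inflorescence only and 1165 in the apex only, and within replicate 2 alone 658 and 409. The gained genes formed 160 runs of neighbouring genes and the lost genes 176, so most stood alone.

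Gained genes were led, by RPM per kb, by LRP1, a zinc finger gene of the SHI family, with 188 and 126 RPM in the inflorescence and no apex island (limma adjusted p = 0.107). The 2 AT14A genes, AT3G28300 with 154 and 57.4 RPM and AT3G28290 with 150 and 45.8 RPM, are near-identical neighbours whose reads may be split between them. The ferritin gene FER2 had 85.1 and 50.1 RPM in the inflorescence (adjusted p = 0.0111). BLH9 and SOC1 were the other leaders.

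Among the lost genes, GTL1 (AT1G33240), a trihelix factor that limits growth of trichome cells, had no island in the inflorescence and 89.7 and 82.6 RPM in apex t2 (limma adjusted p = 0.00973). Both apex islands lay at chr1:12052201-12054600. Its H3K4me3 was 197 and 172 RPM in the inflorescence and 69.6 and 100 RPM in apex t2. STOMAGEN (AT4G12970), a peptide that promotes stomata, had no island in the inflorescence and 31.5 and 40.2 RPM in apex t2 (adjusted p = 0.0126), with H3K4me3 at 26.2 and 29.5 RPM in the inflorescence and no island in apex t2. The other leaders had no inflorescence island either. FP3, a farnesylated metal-binding protein, had 72.5 and 101 RPM in apex t2. The cell wall glycosyltransferase gene GATL10 had 62.5 and 52.0 RPM there, the small heat shock gene HSP18.2 had 30.9 and 22.7 RPM, and the peptide gene RALFL9 had 25.9 and 22.2 RPM (adjusted p = 0.269).

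Of 12 listed photosynthesis genes, 4 were marked by H3K27me3 in both apex t2 replicates and 1 in both inflorescence replicates. Over all 27444 protein-coding genes, these numbers were 7874 and 7129. The 4 were tested, all but 1 through apex t2 alone, which favours a value below 0. Of them 1, CAB2, was lower, against 1.68% of all tested genes. CAB2 had no island in the inflorescence and 19.8 and 19.9 RPM in apex t2 (limma adjusted p = 0.0149). CAB2 has near-identical paralogs, so its reads may be shared with them. RBCS3B had 0 and 15.5 RPM in the inflorescence and 68.8 and 64.7 RPM in apex t2 (adjusted p = 0.398). RBCS2B, the only tested member with islands in all 4 libraries, had 41.1 and 35.1 RPM against 40.5 and 36.6 RPM. All 12 genes had a positive H3K4me3 log2 fold change, with a median of 0.60, and their summed H3K4me3 was 952 and 938 RPM in the inflorescence and 587 and 574 RPM in apex t2. None passed the test. The part of green tissue in these differences was not tested.

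The gained and lost genes differed in the stages that the rule did not use. Of the gained genes, 113 (60.8%) carried islands in each leaf library and 4 (2.15%) in each apex t0 library. Of the lost genes, 16 (8.74%) carried islands in each leaf library and 145 (79.2%) in each apex t0 library. Among all tested genes these shares were 76.9% and 94.2%. In leaf, 153 lost genes (83.6%) had no island in either library. On islands of equal bounds the control read count was identical between inflorescence and leaf libraries of one replicate (659 of 659 and 1637 of 1637 islands), and likewise between apex t2 and apex t0 (3399 of 3399 and 3250 of 3250). Between inflorescence and apex t2 it was identical at 3 of 844 and 4 of 1967 islands. Inflorescence and leaf therefore shared a control that the apices did not, and its part in the island patterns was not tested.

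H3K4me3 was measured in separate libraries. Of 76 gained genes tested for it, 65 (85.5%) had less in the inflorescence, with a median log2 fold change of -0.58. Of 124 lost genes tested, 101 (81.5%) had more, with a median of 0.28. Among all H3K27me3-tested genes with an H3K4me3 value, 48.8% had more, with a median of -0.02. No single gene passed: limma called 0 of 17004 genes for H3K4me3, with 1208 at an unadjusted p under 0.05. Across 959 genes with islands of both marks in all 4 libraries of each mark, the log2 fold changes of the 2 marks had a Spearman correlation of -0.382 and a Pearson correlation of -0.318. Those values describe genes of the same tissues, which are not independent.

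**Figure D5:**
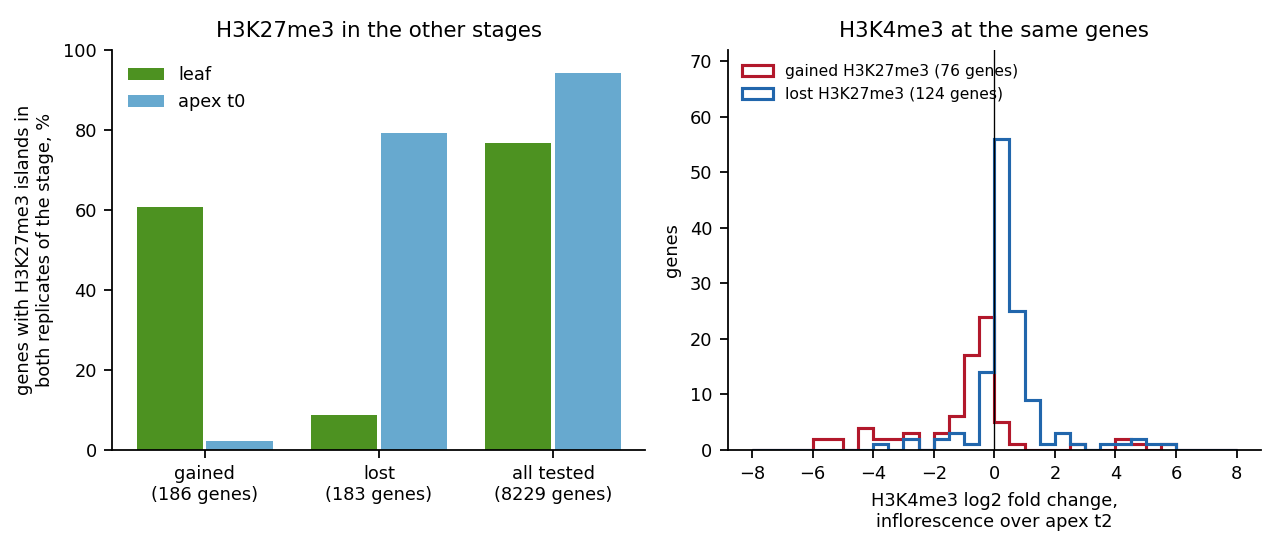
Left, percentage of genes marked by H3K27me3 in both replicates of leaf and of apex t0, for 186 gained, 183 lost and 8229 tested genes. Right, H3K4me3 log2 fold change (inflorescence over apex t2) of 76 gained and 124 lost genes, which lie mostly left and right of 0.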

How the data were processed

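H3K27me3 and H3K4me3 ChIP-seq of 4 stages was used as island tables, 1 per library, deposited by the authors. Read counts of ChIP and control per island were used as deposited, and the deposited p-values and fold columns were not. There is 1 table per library, with bounds of its own. The submitters' processing notes list, with no roles given, SICER 1.1 (a tool that joins enriched windows into islands), BWA 0.6.2-r126, SAMtools 0.1.19, bedtools 2.17.0-97, CASAVA 1.8.2, Picard 1.93 and the TAIR10 build. Neither the island settings nor the total depth are given in the sources used here, and a deeper library can yield more islands.

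Island reads were divided over gene bodies by overlap and scaled to library island reads. Gene bodies came from a RefSeq TAIR10.1 table without strand; in 114 of 116 bins of 1 Mb, islands fitted genes best with no offset. No gene coordinate is printed. Values log2(RPM + 1) of all 8 libraries of a mark were fitted by stage with limma 3.58.1 (R 4.3.3, mean trend, robust moderation, 4 residual degrees of freedom, two-sided, Benjamini-Hochberg). Fold changes understate low genes, and none is given against a tissue without islands. On simulated data, 74% of 2-fold and 100% of 4-fold changes were called among 8229 genes, with 8 false calls. The 200 changes were set only in genes with islands in all 4 libraries. Every library had the same spread, not taken from the measured replicates, and there was no batch. These rates therefore do not give the power or the false calls of the real comparison.

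The labels make the replicate number a batch of handling. Deviations from the group means correlated at 0.355 between same-numbered libraries over 6844 genes. The labels call the replicates biological, with no further detail.

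Members, lists and tests were chosen with earlier results of these data known. Named genes were those past the threshold with islands in all 4 libraries and a symbol (at most 8 each way), the 6 gained and 6 lost with most RPM per kb, list members called, gained or lost, and 14 fixed regulators; 1 gene that met this rule is not reported here. All 222 members of 14 lists matched a locus. No sequence is shown, and input samples were not used here.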

Additional observations from a re-analysis of the deposited data

How the results depend on the processing

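The number of genes with differing H3K27me3 (271, 133 higher and 138 lower) stayed within 1.5 times under TMM or median-ratio scaling, other pseudocounts, plain moderation, a 500 bp overlap, removal of the least dense 25% of islands, and the 4 libraries alone. With no filter on low values it was 110 (67 higher, 43 lower). Per covered kb it was 0, on a measure that 20 of the 271 called genes have. With the replicate number as a block it was 263, of which 254 were shared; the block ended the calls of WOX8 and NUC-L2, added LFY and STM, and changed no other call of a gene named here. Leaving out each library in turn gave 0 to 1006 calls (0 to 398 higher, 0 to 608 lower), where a lone sample is assumed to vary like the other groups. No called gene kept its call in all of these. H3K4me3 calls were 0, 54 with TMM, 54 with median-ratio scaling, 88 with a pseudocount of 5, 53 with no filter, 29 with the block, 461 with 4 libraries alone, 329 with plain moderation, and 0 to 3 with a library left out. Gained genes numbered 179 without the least dense islands, and 211 to 607 with a library left out, and lost genes 176, and 249 to 992. Without the least dense islands the Jaccard index was 0.547 between inflorescence replicates, 0.813 between apex replicates and 0.664 between tissues (median). The sign turned at 6 named genes, none past the threshold in any setting. CAL (0.03) was -0.011 with TMM and -0.027 with median-ratio scaling. With a library left out, log2 fold changes ran from -0.090 to 0.14 for CAL, -0.18 to 0.15 for AP3, -0.19 to 0.11 for PI, -0.49 to 0.048 for SEP2, -0.049 to 0.83 for WUS and -0.38 to 0.21 for FLC. A window with 1 kb on both sides of the gene, chosen after seeing the data, gave 291 calls in place of the planned 1 kb upstream, which was not run because the gene table gives no strand.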
